A study of Mus musculus with 2 samples.

Results

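Potassium channel genes were described here as the autosomal protein-coding genes of the GENCODE M21 annotation whose symbol starts with Kcn, 92 of 20807 autosomal protein-coding genes. The 2 X-linked Kcn genes, Kcnd1 and Kcne1l, were left out by that rule. Accessible DNA had been measured by DNase-seq, in which DNase I cuts DNA that is not wrapped in nucleosomes and dense cuts mark open promoters and enhancers. The samples were 2 libraries (replicates 1 and 2) of frontal cortex from B6CASTF1/J mice, an F1 hybrid between a laboratory and a wild-derived strain. All mice were males aged 14 days with no treatment named, and 3 males gave the tissue of each library. Tissue samples were numbered separately while the donor number was the same, and part of the difference between the replicates may be technical. Both libraries formed 1 group, so that no conditions were contrasted and no p-value was computed. Values of the channel genes were set beside the same measure over all autosomal protein-coding genes, as a description. In bulk tissue, an open site in fewer cells and a site less open in each cell cannot be told apart.

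Potassium channels let potassium ions leave or enter cells and so set the resting potential, the shape of action potentials and the rate of firing of neurons. Voltage-gated channels (Kcna, Kcnb, Kcnc, Kcnd, Kcnh and Kcnq) open on depolarisation, and the silent subunits (Kcnf, Kcng, Kcns and Kcnv) form working channels only together with Kcnb subunits. Inward rectifiers (Kcnj) and tandem-pore leak channels (Kcnk) act near rest, and Kcnma, Kcnn and Kcnt channels are opened by intracellular calcium or sodium. Auxiliary subunits (Kcnab, Kcne, Kcnip and Kcnmb) change the gating or traffic of the pore proteins, and several members of the family are known mainly from heart, kidney, epithelia, immune cells or glia.

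Replicate 1 held 75753 peaks and replicate 2 held 77035, with median heights of 0.848 and 0.801. Peak height is the authors' own signal value on an unstated scale set per library, so a mean of both libraries combines 2 scales, and read depth is unknown. Of the marker genes used to check the tissue, 7 of 8 cortical genes and 3 of 4 interneuron genes had a peak at the promoter in each library. This was the case for 1 of 4 astrocyte, 0 of 3 oligodendrocyte, 1 of 4 microglial, 1 of 4 endothelial and mural, 0 of 2 choroid plexus, 1 of 3 heart and muscle, and 0 of 3 kidney and epithelial genes. The cortical exception, Slc17a7, had a peak in replicate 2 alone. Open promoters thus included nearly all the cortical markers, and some of other brain cells, such as the microglial Cx3cr1 (0.693 and 0.801) and the mural Rgs5 (0.525 and 0.626). The open muscle marker was higher than these 2 in each library (1.02 and 1.21), so an open promoter does not by itself mark a brain gene.

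Of the 92 channel genes, 59 had a promoter peak, that is a peak within 1 kb of an annotated start site, in both libraries. This was 64.1% of the family, near the 60.8% of all autosomal protein-coding genes. A further 9 had one in 1 library alone (all genes 864 of 20807) and 24 in neither (all genes 7286 of 20807). The promoters that were open were low: the median height of the 59 genes was 1.39 (range 0.406 to 13.8, mean of both libraries), against 3.07 over all genes open in both. The median was 1.33 in each library taken alone. Below the all-gene median stood 53 of the 59, with 41 below the lower quartile of open genes and 3 above the upper quartile, and their median percentile was 20.6. Which side of the all-gene share the family fell on turned with the peaks used: with the authors' shorter peak list 41 of 92 were open (44.6%, all genes 54.1%), and with peaks above the median height 45 (48.9%, all genes 54.9%). The low heights held in both of these sets, as they did with the longer list.

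The 2 libraries gave nearly the same order of heights across the 59 genes, which share their libraries and are not independent replicates (Spearman's rho 0.962, and Pearson's r 0.966 for log2 heights). The log2 ratio of replicate 2 over replicate 1 had a median of -0.01 and ran from -0.74 to 0.48, and the median SD between libraries was 0.118. Kcnj5, an inward rectifier that also serves the heart, was the 1 gene more than 1.5 times apart (0.681 and 0.409). In 47 of the 59 genes the tallest peak lay at the same place in both libraries, a smaller share than over all genes open in both (12009 of 12657). In the other 12, among them Kcna2, Kcna3, Kcna6, Kcnd2, Kcnd3, Kcng3, Kcnh7, Kcnj4, Kcnma1, Kcnmb4 and Kcnt1, it lay at different places. By subfamily, their heights within 1 kb are given per library. Medians, percentiles and values under other settings still use the mean of both libraries for these genes, which joins different places.

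**Figure D1:**
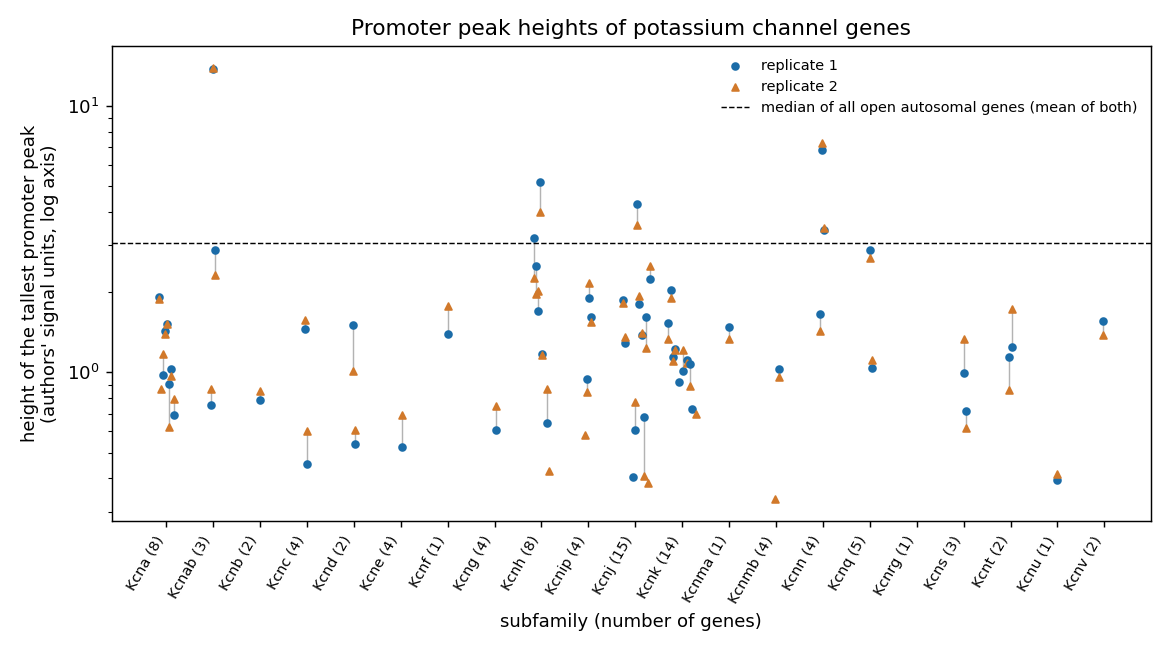
Height of the tallest promoter peak of each channel gene named in the text (vertical log axis, authors' signal units) by subfamily (horizontal axis, number of genes of the subfamily in brackets), with replicate 1 as circles, replicate 2 as triangles and a grey line joining the libraries of 1 gene. The dashed line is the median of all open autosomal genes, 3.07, and Kcnab2 stands far above it at 13.7 and 13.9, while most other points lie below it.

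The stretches under the tallest promoter peaks of the 3 genes that led the inward rectifiers (Kcnj2), the Kcnh channels (Kcnh4) and the Kcnq channels (Kcnq3) are shown because they let the footprints be read against the letters. A footprint is a short gap in the cuts inside an open region, where a bound protein may shield the bases. The sequences are mm10, in the direction of transcription and without annotated untranslated exons, and capitals mark bases that lay in footprints of both libraries. The Kcnj2 stretch is chr11:111065961-111066163 (plus strand), that of Kcnh4 is chr11:100759943-100760140 (minus strand), and that of Kcnq3 is chr15:66286721-66287000 (minus strand).
Kcnj2: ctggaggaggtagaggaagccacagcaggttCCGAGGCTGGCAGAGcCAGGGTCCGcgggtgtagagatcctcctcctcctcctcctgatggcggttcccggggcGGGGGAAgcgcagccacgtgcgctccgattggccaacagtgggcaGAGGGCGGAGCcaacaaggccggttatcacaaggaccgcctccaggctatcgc
Kcnh4: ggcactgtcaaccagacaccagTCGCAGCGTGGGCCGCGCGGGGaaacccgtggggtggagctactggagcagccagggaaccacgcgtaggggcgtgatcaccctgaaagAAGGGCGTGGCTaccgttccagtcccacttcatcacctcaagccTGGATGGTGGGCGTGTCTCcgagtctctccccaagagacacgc
Kcnq3: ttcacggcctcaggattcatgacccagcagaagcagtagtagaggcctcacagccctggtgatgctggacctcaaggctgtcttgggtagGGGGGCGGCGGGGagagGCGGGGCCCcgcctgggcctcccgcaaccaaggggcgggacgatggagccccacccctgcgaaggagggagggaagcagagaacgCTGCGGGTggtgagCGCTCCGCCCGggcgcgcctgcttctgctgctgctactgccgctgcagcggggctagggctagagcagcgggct
Footprints of both libraries covered 42 of the 203 bases at Kcnj2, 53 of 198 at Kcnh4 and 41 of 280 at Kcnq3. A GC box (GGGCGG on either strand, the element bound by Sp1-family factors) was found at bases 102 to 107 and 153 to 158 of the Kcnj2 stretch, with 2 and 6 of its 6 bases in capitals. At Kcnq3 it was found at bases 93 to 98, at 140 to 145 and, on the opposite strand, at 211 to 216, with 6, 0 and 6 bases in capitals. None of the motifs searched, which are spelled out with the base composition, was found in the Kcnh4 stretch.

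Among the voltage-gated pore genes, 7 of 8 Kcna genes were open in both libraries, with a median height of 1.07. Kcna1, the gene of a fast axonal channel, led them at 1.92 in replicate 1 and 1.88 in replicate 2 (mean 1.90 ± 0.0267, SD, n = 2). Its peak (chromosome 6, 126645721 to 126645980 in replicate 1) lay in an annotated noncoding exon, about 533 bp downstream of the nearest start site. Kcna4, a neuronal channel of the rapidly inactivating kind, had 1.52 in both libraries. Kcna7, known from skeletal muscle and heart, was the lowest in the mean and in replicate 1 at 0.693 and 0.792 (mean 0.742 ± 0.0705, SD, n = 2), upstream of the gene on chromosome 7 (45405181 to 45405369 in replicate 1). Kcna2, a partner of Kcna1 in axons, had 0.979 and 1.17, the immune channel gene Kcna3 had 1.43 and 1.39, Kcna6 had 1.03 and 0.967, and the vascular and cardiac Kcna5 had 0.908 and 0.626. The brain genes Kcna1 and Kcna4 stood above the muscle genes Kcna5 and Kcna7 in each library, while the immune gene Kcna3 lay near Kcna4.

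Kcnb2, a delayed rectifier of neurons, had 0.788 and 0.851 (mean 0.819 ± 0.0442, SD, n = 2) upstream of its start. Kcnc channels allow fast firing. Kcnc1 had 1.46 and 1.58, and Kcnc2, a gene of fast-spiking interneurons, had 0.454 and 0.601 (mean 0.527 ± 0.104, SD, n = 2), at percentile 2.02 of open genes. Kcnc4 had no promoter peak in either library. Kcnc1 was higher than Kcnc2 in both libraries, with no overlap. Both of these peaks lay at internal start sites and not at the principal start. Kcnc1 also had a region open in both libraries at its principal start (1.17 and 1.30), while the internal region was the only such promoter region of Kcnc2.

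Kcnd2 and Kcnd3, whose channels carry the dendritic A-type current, were both open, with the tallest peak at different places in the libraries. Kcnd2 had 1.505 and 1.01, both upstream of the gene on chromosome 6 (21215161 to 21215480 in replicate 1 and 21214501 to 21215080 in replicate 2). Kcnd3 had 0.537 in replicate 1, over a coding exon within 1 kb of a start site inside the gene (chromosome 3, 105668284 to 105668373). In replicate 2 it had 0.609 at the principal start (105453001 to 105453200). Both regions of Kcnd2 were open in both libraries, so that at this gene the libraries differed in which peak was tallest. At Kcnd3 the internal site was open in both (0.537 and 0.50), while the peak at the principal start was called in replicate 2 alone.

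Of the 8 Kcnh genes, the ether-a-go-go family, 6 were open with a median height of 2.04. Kcnh4, a forebrain member, had 5.19 and 4.00 (mean 4.60 ± 0.842, SD, n = 2) and stood at percentile 67.2 of open genes. Kcnh1 had 3.18 and 2.25, Kcnh2, the gene of a repolarising current of heart and brain, had 2.50 and 1.96, Kcnh3 had 1.70 and 2.03, and Kcnh5 had 1.17 and 1.16. Kcnh7 was the lowest, with 0.645 upstream of its start in replicate 1 and 0.867 over its first coding exon in replicate 2. Kcnh8 had a peak in replicate 2 alone and Kcnh6 in neither. Kcnh4 was higher than each of the other Kcnh genes in both libraries.

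Kcnq3 encodes a subunit of the neuronal M-channel, which holds back repetitive firing. It had 2.87 and 2.68 (mean 2.77 ± 0.134, SD, n = 2) just upstream of its start. Kcnq5, a related neuronal gene, had 1.04 and 1.11, below Kcnq3 in both libraries. Kcnq1, known from heart and epithelia, had no promoter peak in either library.

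Of the 10 silent subunit genes, 5 were open: Kcnf1 (1.397 and 1.78), Kcns2 (0.991 and 1.33), Kcns3 (0.717 and 0.617), Kcng3 (0.609 and 0.751, at different places) and Kcnv1 (1.55 and 1.38). Kcnf1 and Kcnv1 are forebrain genes, and each was above the other 3 in both libraries. Kcng1, Kcng2, Kcng4, Kcns1 and Kcnv2, a photoreceptor gene, had none in either library.

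Of the 15 Kcnj genes, 9 were open with a median height of 1.42. Kcnj2, a strong inward rectifier of neurons, muscle and vessels, led them at 4.28 and 3.58 (mean 3.93 ± 0.493, SD, n = 2), and Kcnj5 was the lowest in the mean and in replicate 2 (0.681 and 0.409, mean 0.545 ± 0.192, SD, n = 2). The G protein-gated subunits of neurons, which slow firing when transmitter receptors activate them, were all open: Kcnj3 had 1.80 and 1.93, Kcnj6 had 1.61 and 1.23, and Kcnj9 had 2.25 and 2.50. Kcnj4, another forebrain rectifier, had 1.385 and 1.401 at different places. Kcnj10, the astrocyte channel that clears potassium, had 1.86 and 1.82, and Kcnj16, its partner subunit, had 0.609 and 0.776. Kcnj11, the pore of the ATP-sensitive channel, had 1.29 and 1.35. The glial gene Kcnj10 thus lay among the neuronal members in both libraries, while 1 of the 4 astrocyte markers had a promoter peak in both.

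The leak channels gave narrow values. Of 14 Kcnk genes, 7 were open with means between 0.984 and 1.97. Kcnk10 had 2.04 and 1.89 (mean 1.97 ± 0.105, SD, n = 2), over an intron and the coding exon beside it on chromosome 12 (98573921 to 98574140 in replicate 1). Kcnk1 had 1.53 and 1.33, the microglial Kcnk13 had 1.22 and 1.21, Kcnk12 had 1.15 and 1.101, Kcnk2 had 1.02 and 1.21, Kcnk4 had 1.11 and 1.08, and Kcnk5, known from kidney and epithelia, was the lowest in the mean at 1.07 and 0.892 (mean 0.984 ± 0.129, SD, n = 2). Kcnk10 and Kcnk1 were the highest in both libraries, although with a window of 500 bp Kcnk10 stood at 1.28 and below Kcnk1, while the 2 heights of Kcnk2 spanned those of Kcnk12 and Kcnk4, so that the order of these 3 was not resolved.

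Among the channels opened by calcium or sodium, Kcnn2 and Kcnn3 stood above the median of all open genes (3.07), and the other open genes lay below it. Of the 8 genes of this group, in which Kcnu1 was also counted, 7 were open. Kcnn2, a small-conductance channel of the afterhyperpolarisation, had 6.79 and 7.25 (mean 7.02 ± 0.320, SD, n = 2) at an internal start on chromosome 18 (45559281 to 45559540 in replicate 1) and stood at percentile 83.4 of open genes. Kcnn3 had 3.43 and 3.47 (mean 3.45 ± 0.0299, SD, n = 2) and Kcnn1 had 1.66 and 1.43 (mean 1.54 ± 0.165, SD, n = 2). The order of these 3 small-conductance genes was the same in both libraries, with no overlap. The large-conductance gene Kcnma1 had 1.48 and 1.33 at different places. The sodium-activated Kcnt2 had 1.24 and 1.73 and Kcnt1 had 1.15 and 0.859 at different places (mean of both 2.15 with a window of 2000 bp). Kcnu1, a sperm channel, had the lowest promoter peak of the 59 genes in the mean, 0.394 and 0.417 (mean 0.406 ± 0.0162, SD, n = 2), at percentile 0.601 of open genes. Kcnn4, known from blood cells and epithelia, had none.

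Among the auxiliary subunits, all 3 Kcnab genes were open. Kcnab2, an axonal beta subunit of Kcna channels, had the tallest promoter of the family at 13.7 and 13.9 (mean 13.8 ± 0.129, SD, n = 2), percentile 98.3 of open genes, on chromosome 4 (152477461 to 152477740 in replicate 1). This peak also lay within 1 kb of a start site of Nphp4, so that its height cannot be assigned to either gene, and Kcnab2 was the 1 channel gene of the 59 whose tallest peak was shared in this way. Kcnab3 had 2.88 and 2.32, and Kcnab1 had 0.752 and 0.867. Of the Kcnip genes, calcium-binding partners of Kcnd channels, 3 of 4 were open, with Kcnip3 at 1.90 and 2.17, Kcnip4 at 1.61 and 1.54, and Kcnip2 at 0.943 and 0.842 (mean 2.44 with a window of 2000 bp). Kcnmb4, the neuronal beta subunit of Kcnma1, was the 1 open gene of 4 in its subfamily (1.03 and 0.959, at different places). Kcne3 was the 1 open gene of the 4 Kcne genes (0.525 and 0.692).

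**Figure D2:**
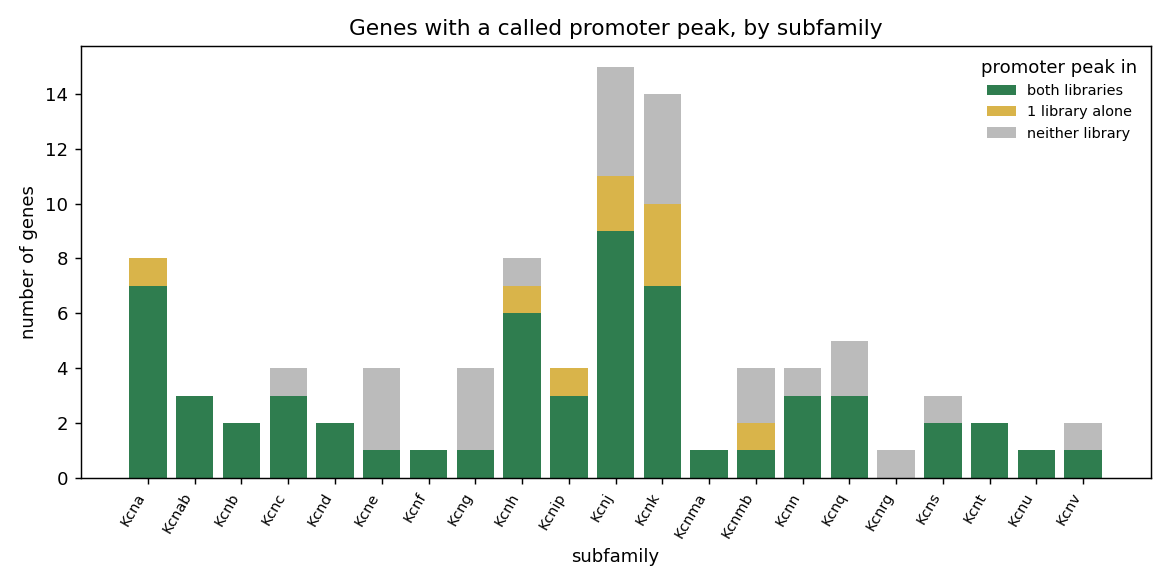
Number of channel genes (vertical axis) of each subfamily (horizontal axis) with a promoter peak in both libraries (green), in 1 library alone (yellow) or in neither (grey). Kcna has 7 of 8 genes in green, while Kcne and Kcng have 1 of 4 each.

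The 24 genes with no promoter peak in either library included Kcnc4, Kcne1, Kcne2, Kcne4, Kcng1, Kcng2, Kcng4, Kcnh6, Kcnj1, Kcnj12, Kcnj13, Kcnj14, Kcnk3, Kcnk7, Kcnk15, Kcnk18, Kcnmb1, Kcnmb3, Kcnn4, Kcnq1, Kcnrg, Kcns1 and Kcnv2. They include the renal Kcnj1, the choroid plexus and epithelial Kcnj13, the cardiac subunit Kcne1, the sensory Kcnk18 and the smooth muscle subunit Kcnmb1. In the deposited track of cut rates, none of the 24 had a single base below a false discovery rate of 0.05 within 1 kb of a start in either library. Such bases were rare without a peak: of all 7286 autosomal protein-coding genes with no promoter peak in either library, 24 had them in both. The track thus adds little to the peak calls for these channel genes. The 9 genes called in 1 library alone had peaks below 1, of which Kcna10 and Kcnk16 were above the median of all peaks of their library. In replicate 2 alone these were Kcna10 (0.867), Kcnk9 (0.701), Kcnip1 (0.584), Kcnh8 (0.425), Kcnj8 (0.384) and Kcnmb2 (0.334), and in replicate 1 alone Kcnk16 (0.920), Kcnk6 (0.728) and Kcnj15 (0.406). Kcnj8 and Kcnmb2 also had bases below that rate in replicate 1 (26 and 30 bases), so that 61 genes had some signal in both libraries.

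A list of 41 channel genes known from cortical neurons and a list of 27 known from other cells or organs were compared, both written with earlier results of these data known. Of the neuronal list, 39 were open in both libraries, 1 in replicate 2 alone (Kcnk9, a leak channel) and 1 in neither (Kcnc4). Of the other list, 10 were open in both, 5 in 1 library and 12 in neither, and of the 24 genes in no list 10 were open in both, 3 in 1 library and 11 in neither. The share open over all genes was 60.8%, as above. The open genes had median heights of 1.43 in the neuronal list, 0.755 in the other list and 1.64 in neither, so that all 3 stood below the all-gene median of 3.07. The lists also differed in base composition: the median G+C content from 250 bases before to 50 after the start site was 65.0% in the neuronal list and 56.0% in the other list, and its part in the counts was not tested. With the authors' shorter peak list, 30 of 41 genes of the neuronal list and 4 of 27 of the other list were open.

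**Figure D3:**
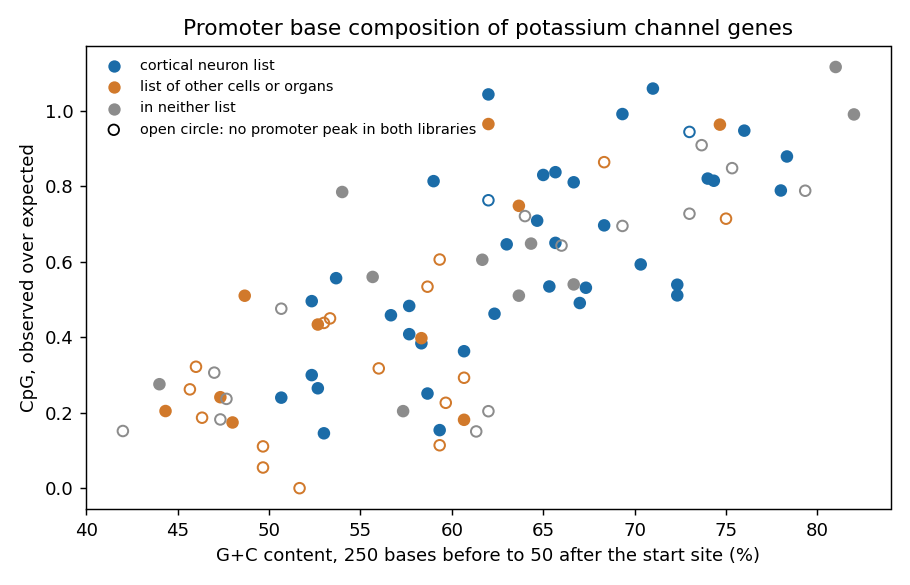
G+C content of the 300 bases around the start site (horizontal axis, percent) and the ratio of observed to expected CpG (vertical axis) of each channel gene named in the text, coloured by list. Filled circles have a promoter peak in both libraries and open circles do not; open circles occur at high as well as low G+C content.

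Over all autosomal protein-coding genes the share with an open promoter rose with G+C content, from 18.3% in the lowest of 5 equal bins to 87.6% in the highest. Channel genes were close to all genes in bins 2 and 3 and below them in bins 4 and 5. In bin 1, 2 of 5 were open (40.0%), in bin 2, 9 of 18 (50%, all genes 46.3%), in bin 3, 13 of 18 (72.2%, all genes 69.3%) and in bin 4, 15 of 22 (68.2%, all genes 84.0%). In bin 5, 20 of 29 were open (69.0%), and 7 had no peak in either library, among them Kcnc4, Kcng1, Kcnh6, Kcnj12, Kcnk3 and Kcnq1. The median G+C content was 61.5% in the family and 56.0% over all genes, and the ratio of observed to expected CpG was 0.533 against 0.572.

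In the same 300 bases, the GC box GGGCGG was found in 47 of 92 channel genes (51.1%) against 46.1% of all genes, counting both strands. Among genes open in both libraries the direction was reversed, with 33 channel genes (55.9%) against 63.1% of all open genes. No channel gene held any of 3 elements in this window: the NRF1 site GCGCATGCG (2.24% of all genes), the YY1 site AAGATGGCG (1.85%) and the CRE TGACGTCA (2.50%). The ETS site CCGGAAG was found at 7 channel genes (7.61%, all genes 11.4%), among them Kcnh7, Kcnk2, Kcnt2 and Kcnv1. The E-box CAGCTG was found at 21.7% of channel genes (all genes 15.5%) and the E-box CAGATG at 15.2% (all genes 14.6%), and the AP-1 site TGANTCA at 3 genes, Kcne1, Kcne3 and Kcnj1 (3.26%, all genes 6.63%). The CTCF core CCANNAGGG was found at Kcnf1 alone, and RE1, the element of the neuronal repressor REST, at Kcna5 alone, searched as CAGCACC and GGACAGC with 2 bases between them and up to 2 mismatches (1.09% each, all genes 6.12% and 0.817%). A match is not evidence of binding, and with 92 genes a share of a few percent rests on a handful of promoters.

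The median number of annotated start sites was 3 in the channel genes and also over all genes. The totals were 332 for the 92 channel genes and 90310 for all 20807 genes. Of the 332 start sites of channel genes, 141 (42.5%) lay within 1 kb of a region that was open in both libraries, against 49.4% over all genes. Of 58 genes with such a shared region, 32 (55.2%) had 2 or more, against 42.8% of all genes with one. A start site lay inside a shared region in 44 of them (75.9%), against 85.2% of all genes with one, and the median length of shared open DNA near the starts was 540 bp against 400 bp. Kcna1 had the most regions, 6 with 2155 bp in all, of which the tallest was the one named above. Kcnip4 had 4, with heights from 0.287 to 1.61 in replicate 1, spread over start sites far apart on chromosome 5. Summed over all start sites, genes with a shared region thus had more open DNA than all such genes, while the width of single promoter peaks was similar (medians of 230 and 280 bp in replicates 1 and 2, all genes 240 and 260 bp).

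Distal open DNA was more common at channel genes than at other genes. Distal regions were regions open in both libraries more than 1 kb from every start site of a protein-coding gene, counted over the gene and 10 kb on both sides. Of the 92 channel genes, 76 had at least 1, against 47.4% of all autosomal protein-coding genes, and the median density was 0.265 per 10 kb, against 0. The 256 regions were all different, with 172 in introns, 18 over an exon, 38 upstream and 28 downstream. A footprint was called in both libraries in 204 of them, and 11 lay within 1 kb of the start of a noncoding gene. The shares by place, footprint and noncoding start were not taken over all autosomal distal regions, so these counts describe the 256 alone. The median height of the 256 regions was 1.07, against 0.897 over the 33878 autosomal distal regions.

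Channel genes are long, with a median of 32.2 kb against 17.6 kb, and length moves with the number of distal regions. In 5 equal bins of gene length over all genes, 3 of 7 channel genes in the shortest bin had a distal region (42.9%, all genes 24.8%), 11 of 20 in bin 2 (55.0%, all genes 32.6%), 15 of 15 in bin 3 (all genes 43.7%), 17 of 18 in bin 4 (94.4%, all genes 54.9%) and 30 of 32 in the longest bin (93.8%, all genes 80.9%). The median density was 0.597 per 10 kb in bin 3 and 0.327 in bin 4 (all genes 0 and 0.144), but 0.137 in the longest bin, where all genes had 0.135. The density was thus above that of all genes in the middle bins and level with it in the longest.

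**Figure D4:**
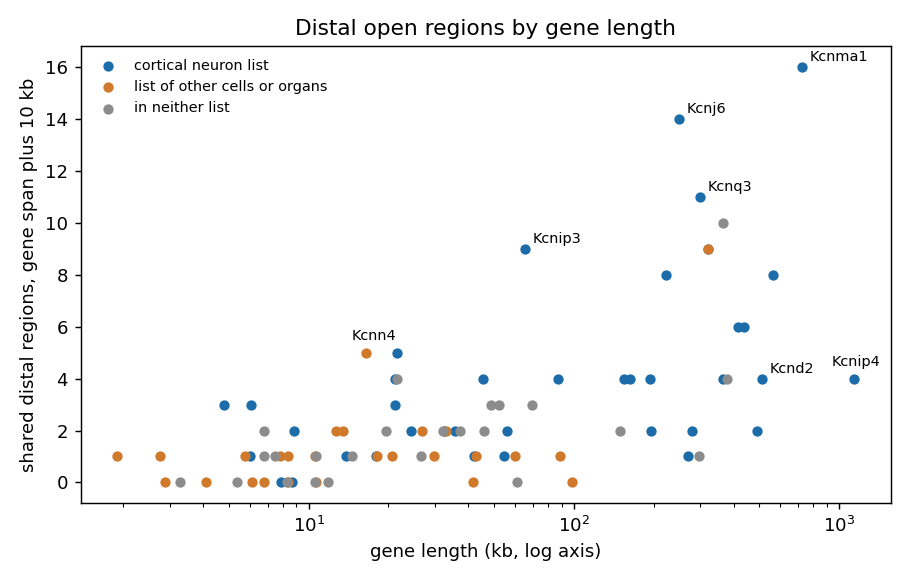
Number of shared distal regions over the gene and 10 kb on both sides (vertical axis) against gene length (horizontal log axis, kb) for the channel genes named in the text, coloured by list. Kcnma1 has 16 and Kcnj6 14, whereas the longer Kcnip4 has 4, and the short Kcnn4 has 5.

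Kcnma1 had the largest number of distal regions, 16, followed by Kcnj6 with 14, Kcnq3 with 11 and Kcnip1 with 10. Kcnh1, Kcnip3 and Kcnq1 had 9 each, and Kcnd3 and Kcnq5 had 8 each. Per 10 kb the leading genes were others: Kcnn4 had 1.37, Kcnf1 1.21, Kcnj4 1.20, Kcns2 1.15, Kcnip3 1.05, Kcnn1 0.971, Kcng1 0.961, Kcnj11 0.746 and Kcnc4 0.727. Kcnn4, Kcng1 and Kcnc4 were in this group although none had a promoter peak in either library. Kcnip3, a calcium-binding partner of Kcnd channels, was the 1 gene with a place in both orders. Regions near short genes can belong to neighbours, since the 10 kb on both sides are counted for every gene.

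A distal region was taller than the promoter, in the mean of both libraries, at 30 of the 59 channel genes with a promoter peak in both. The same share was not taken over all genes, so this count describes the channel genes alone. The tallest distal region of the family lay upstream of Kcnn1, with heights of 12.3 and 12.9 (mean 12.6 ± 0.451, SD, n = 2). The promoter peak of that gene had 1.66 and 1.43. This promoter peak lay at an internal start site (70857014 to 70857104 in replicate 1) and was not in the authors' shorter list in both libraries. The distal region lay 2283 bp from the nearest annotated start site, which was that of Kcnn1, and stood at percentile 99.9 of autosomal distal regions. The second lay in an intron of Kcnq1 and contained the start of Kcnq1ot1, an antisense noncoding RNA known for allele-specific expression in an imprinted domain. Its heights were 8.48 and 4.74, 1.79 times apart, where 14.97% of autosomal distal regions were more than 1.5 times apart, and they are not split by allele. The third lay in an intron of Kcnq3 (4.39 and 5.33, mean 4.86 ± 0.661, SD, n = 2), taller than the promoter of that gene in each library.

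The central parts of these 3 regions are shown in the direction of transcription of the channel gene, again with capitals for bases in footprints of both libraries. They are chr8:70865590-70865889 (Kcnn1, minus strand), chr7:143296514-143296813 (Kcnq1, plus strand) and chr15:66239201-66239500 (Kcnq3, minus strand), all in mm10.
Kcnn1 upstream region: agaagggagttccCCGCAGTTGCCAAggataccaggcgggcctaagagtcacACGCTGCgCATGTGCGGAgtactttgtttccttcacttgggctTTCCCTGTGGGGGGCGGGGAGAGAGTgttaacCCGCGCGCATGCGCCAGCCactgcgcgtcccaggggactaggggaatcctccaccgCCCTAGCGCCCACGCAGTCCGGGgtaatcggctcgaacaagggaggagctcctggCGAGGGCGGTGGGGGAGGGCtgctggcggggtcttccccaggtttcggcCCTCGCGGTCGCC
Kcnq1 intron region: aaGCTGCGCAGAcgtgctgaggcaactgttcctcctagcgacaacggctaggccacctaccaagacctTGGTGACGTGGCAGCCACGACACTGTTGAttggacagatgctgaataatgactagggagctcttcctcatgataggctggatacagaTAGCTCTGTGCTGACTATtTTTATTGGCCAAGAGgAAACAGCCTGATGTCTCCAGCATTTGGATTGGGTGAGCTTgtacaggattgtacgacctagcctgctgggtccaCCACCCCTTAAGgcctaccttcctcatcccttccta
Kcnq3 intron region: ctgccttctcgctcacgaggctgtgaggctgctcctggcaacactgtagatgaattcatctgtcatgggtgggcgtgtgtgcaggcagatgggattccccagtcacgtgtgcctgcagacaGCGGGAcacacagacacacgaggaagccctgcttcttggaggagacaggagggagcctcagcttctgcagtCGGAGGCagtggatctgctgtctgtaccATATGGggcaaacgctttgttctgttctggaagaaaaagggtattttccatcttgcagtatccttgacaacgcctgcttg
Footprints of both libraries covered 131 of 300 bases at Kcnn1, 124 of 300 at Kcnq1 and 19 of 300 at Kcnq3. The Kcnn1 stretch is 66.7% G+C and holds 25 CpG, and the NRF1 site GCGCATGCG, which no channel gene held in the 300 bases around its start site, was found there at bases 132 to 140, and on the opposite strand at 133 to 141, each with all 9 bases in capitals. It also held GC boxes at bases 107 to 112 and 242 to 247, each with 6 of 6 bases in capitals, and on the opposite strand at 181 to 186 with 3. The Kcnq1 stretch held CCAAT, the element of NF-Y, on the opposite strand at bases 97 to 101, 178 to 182 and 218 to 222, with 1, 5 and 5 of the 5 bases in capitals. It also held the E-box CAGATG at bases 103 to 108 with 0 bases in capitals. GTTGCC, part of the X-box bound by RFX factors, was found in the Kcnn1 stretch at bases 19 to 24 with 6 bases in capitals, and on the opposite strand of the Kcnq1 stretch at 21 to 26 with 0. At Kcnq3 the matches, CAGATG at bases 86 to 91 and, on the opposite strand, at 57 to 62, and GTTGCC on the opposite strand at 37 to 42, had no base in capitals. CCAAT and GTTGCC were searched after these sequences had been seen. In the Kcnj2 promoter stretch printed above, CCAAT was found on the opposite strand at bases 133 to 137 with 0 bases in capitals.

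In the central 200 bases of the 256 distal regions, shares of regions with a common motif were close to those of all autosomal distal regions. CAGATG was found in 25.4% (all 24.6%), CAGCTG in 23.4% (all 22.1%), AP-1 in 12.5% (all 10.7%), the GC box in 9.38% (all 10.1%), the CTCF core in 7.42% (all 7.99%), and GTTGCC in 12.1% (all 11.7%). Rare motifs rested on 1 or 2 of the 256 regions: the NRF1 and CRE sites on 2 each (0.781%, all 0.354% and 0.579%), the ETS site on 2 (0.781%, all 1.59%) and the YY1 site on 1 (0.391%, all 0.337%). CCAAT was found in 19.5% (all 22.1%) of distal regions and in 29.3% of channel gene promoters (all genes 38.2%), and GTTGCC in 16.3% of channel gene promoters (all genes 12.1%). The E-box and AP-1 letters were thus as common near channel genes as elsewhere in open distal DNA.

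Further distal regions among the 10 tallest had means between 2.52 and 2.88. They lay downstream of Kcna6 (2.65 and 3.11) and Kcnk12 (2.73 and 2.30) and in introns of Kcnn3 (2.48 and 2.82), Kcnab2 (2.70 and 2.55) and Kcnip1 (3.01 and 2.14). The promoter of Kcnip1, for comparison, had a peak of 0.584 in replicate 2 alone.

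**Figure D5:**
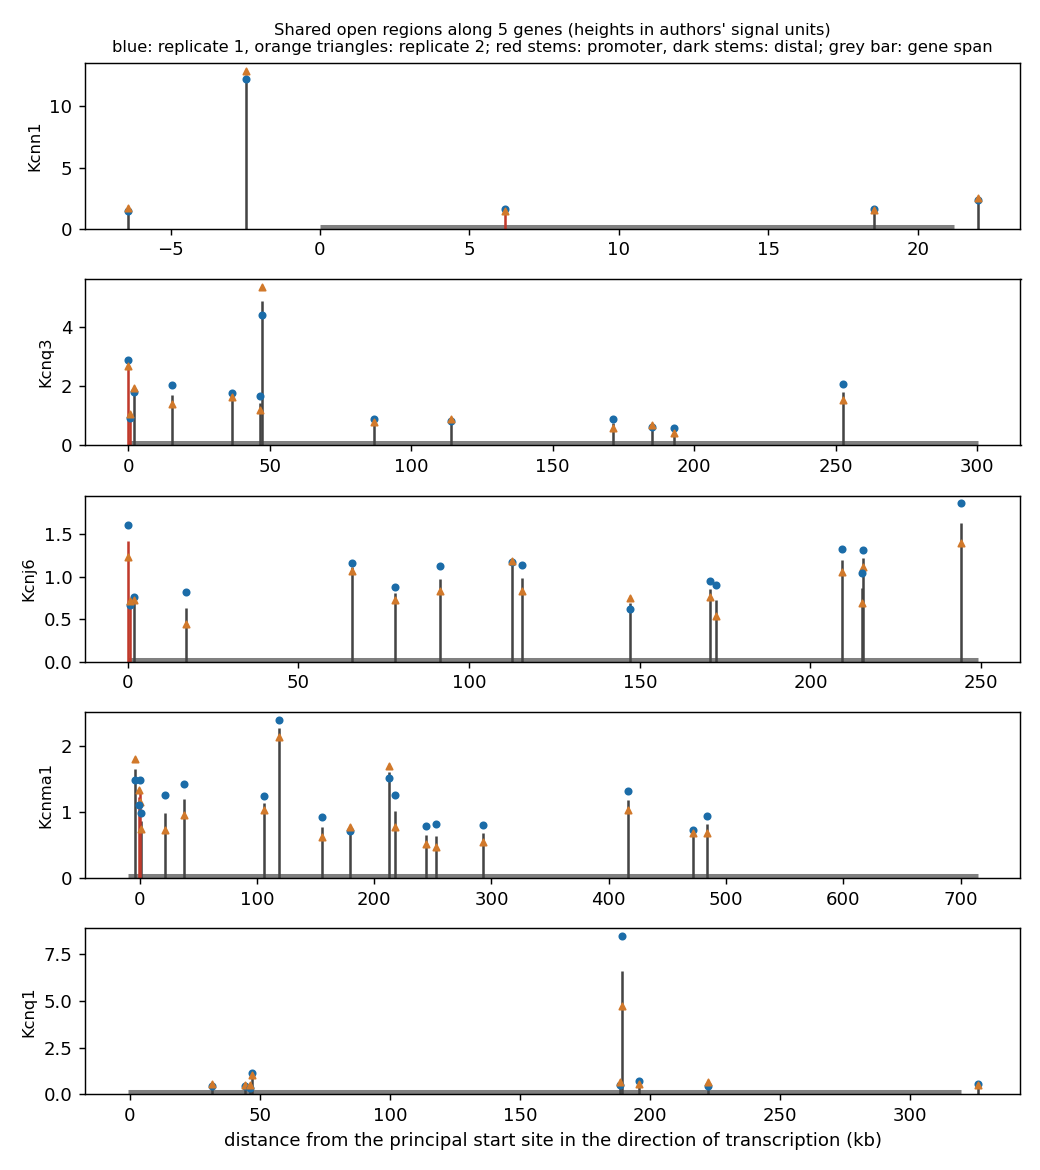
Regions open in both libraries along 5 channel genes: the horizontal axis is the distance from the principal start site in the direction of transcription (kb), the vertical axis the height (authors' signal units), with replicate 1 as blue circles, replicate 2 as orange triangles, red stems for promoter regions, dark stems for distal regions and a grey bar for the gene. The region upstream of Kcnn1 stands at 12.3 and 12.9, above all others of that gene, and Kcnma1 and Kcnj6 carry many low regions along their length.

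Of the 24 genes without a promoter peak in either library, 17 had a distal region, among them Kcnq1 with 9, Kcnn4 with 5 and Kcng1 with 4. The other 7, Kcne4, Kcng4, Kcnj13, Kcnj14, Kcnk15, Kcnmb1 and Kcnrg, had neither kind of open site. The same share was not taken over all genes without a promoter peak, so the counts of 17 and 7 describe the channel genes alone. Among the 59 open genes, 51 had a distal region (86.4%), against 56.1% of all open genes. The 8 without one were Kcna4, Kcna5, Kcna7, Kcnk4, Kcnk5, Kcnk13, Kcns3 and Kcnv1. In the neuronal list 39 of 41 had a distal region, and in the other list 19 of 27, where all genes had 47.4%. The median gene length was 65.6 kb in the neuronal list and 13.5 kb in the other list, and its part in these counts was not tested.

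Footprints near the start sites were called in both libraries at 55 of 92 channel genes, near the 58.5% of all autosomal protein-coding genes, and all 55 were open in both libraries. There were 281 footprints in replicate 1 and 465 in replicate 2 within 1 kb of the start sites, a ratio of 1.65 against 1.33 over all genes. Of the 281, 142 (50.5%) overlapped a footprint of replicate 2 by at least 1 base, against 66.9% over all genes. Kcnn2 had 16 and 29 footprints with 10 of the 16 overlapped, and Kcnj2 had 7 and 8 with 5. Some low promoters had no footprint in replicate 1, such as Kcnc2 (0 and 3), Kcnd3 (0 and 10) and Kcnu1 (0 and 1), while at Kcnb2, also low, 3 of the 5 in replicate 1 were overlapped. The genome held 156390 footprints in replicate 1 and 202779 in replicate 2, a difference in the same direction as at channel genes.

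Genes outside the Kcn symbols whose products partner or anchor these channels were read from a list of 19, and 13 were open in both libraries (68.4%, all genes 60.8%), with a median height of 1.28 (all open genes 3.07). Dlg4, the postsynaptic scaffold that binds Kcna channels, was the tallest at 5.45 and 5.72. Dpp6 and Dpp10, membrane partners of Kcnd channels, had 1.505 and 1.80, and 0.896 and 1.15, respectively. The sulfonylurea receptor gene Abcc8, whose product pairs with that of Kcnj11, had 0.967 and 0.859, whereas Abcc9, the partner of the vascular Kcnj8, had no promoter peak in either library. Of the pacemaker channel genes, Hcn4 (1.18 and 1.14) was open, Hcn2 had a peak in replicate 1 alone (1.54) and Hcn3 in neither.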

How the data were processed

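DNase-seq of frontal cortex was available for 2 libraries of 1 group. For each library separately the authors deposited peak lists, footprints and a cut rate track. The assembly was mm10 per the deposited file descriptions, and aligner and callers are not given in the sources used here. Peak height is the signal column that the authors scaled for each library, with no stated scale. The deposited cut rate track holds false discovery rates (q-value units) for bases below 0.05, and the deposited footprints carry the constant 0.01 as their p-value or q-value. Each library had 75753 or 77035 peaks in its longer list, which was used throughout. Read depth is unknown, so no counting interval is given, and the gap between libraries is the error. Reads from the non-reference strain of the hybrid may map less well, which was not tested.

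Start sites were those of all transcripts of protein-coding genes in GENCODE M21, and printed sequences come from the RefSeq copy of the mm10 genome. A promoter height was that of the tallest peak within 1000 bp of a start, and a gene was open when both libraries had one. Peaks of both libraries that overlapped by 1 bp formed shared regions, and those farther than 1000 bp from every such start were distal. Motifs were searched on both strands from 250 bases before to 50 after the principal start, which need not be the start with the peak. No test was made. A few members and other genes are not reported here by name, and counts over the family include them. The members, gene lists, motifs and comparisons were chosen with earlier results of these data known. Otherwise named in full were, per subfamily, the genes with the tallest and the lowest promoter peak, the 10 genes with most distal regions per 10 kb and the 10 tallest distal regions; genes without a peak were named only, and printed promoter sequences were taken from tall promoters of large subfamilies outside untranslated exons. Alternatives were other windows and flanks, the shorter list, taller peaks, stricter overlap and each library alone. The scripts were checked on simulated data and used Python 3.11.15 with numpy 2.4.6, pandas 2.3.3, pysam 0.24.0 and matplotlib 3.10.9.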

Additional observations from a re-analysis of the deposited data

How the results depend on the processing

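The count of channel genes with an open promoter lay between 41 (the authors' shorter peak list, all genes 54.1%) and 65 (replicate 2 alone, all genes 63.5%) against 59 (all genes 60.8%). That of genes with a distal region lay between 57 and 89 against 76 (all genes 47.4%). The 57 came with the gene alone (all genes 29.2%) and with the shorter peak list (all genes 31.3%), and the 89 with 50 kb on both sides (all genes 76.2%). That of genes with a promoter footprint lay between 53 (window of 500 bp, all genes 56.7%) and 63 (replicate 2 alone, all genes 62.1%) against 55 (all genes 58.5%). The median promoter height was 1.32 with a window of 500 bp, 1.47 with the shorter peak list, 1.49 with peaks above the median height, and 1.21 to 1.27 with 1 replicate left out, and under each of these, as in the values reported, it stayed below that of all open genes (2.87 to 3.50). The median number of distal regions per 10 kb was 0.212 with 50 kb on both sides (all genes 0.146), 0.155 with the gene alone, 0.0714 with the shorter peak list, 0.133 with peaks above the median height, 0.261 with start sites of noncoding genes also excluded, and 0.356 to 0.360 with 1 replicate left out (all genes 0.142 to 0.145), against 0.265. The list of other cells or organs fell from 10 open genes to 4 with the shorter peak list and to 4 with peaks above the median height, and the neuronal list lay between 30 and 40 of 41. The shorter peak list left out 18 of the 59 genes, among them Kcnj10, Kcnj9, Kcnn1 and Kcnq5. The window of 500 bp left out Kcnd3, and that of 2000 bp added Kcnh8, Kcnj1, Kcnk9 and Kcnn4. Fewer peaks enter the shorter list and the taller set, and no other cause was tested. Among promoter heights of single genes, 7 values under these settings moved by more than the spread between replicates, which a library alone cannot do by construction. Of these, 4 moved by over 1.5 times: Kcnk10 (1.97 to 1.28 with 500 bp), and with 2000 bp Kcnip2 (0.893 to 2.44), Kcnt1 (1.00 to 2.15) and Kcng3 (0.680 to 1.31). No paired analysis was possible because the libraries form 1 group. Depth is unknown, so a low peak missed in 1 library cannot be told from a closed site.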
